A study of Mus musculus with 12 samples.

Results

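The genes described here encode 10 receptor chains through which eosinophils receive IL-5, IL-3, GM-CSF, IL-33, IL-4, IL-13 and IL-10: Il5ra, Csf2rb, Csf2rb2, Csf2ra, Il3ra, Il1rl1, Il1rap, Il4ra, Il13ra1 and Il10ra. They were chosen by name as survival and alarmin receptor chains, and they make up 10 of the 36047 genes measured. All 10 passed the filter on low values (a mean normalized count above 10) and are among the 15249 genes tested. Small intestine (SI) eosinophils had been separated into an α4β7+, an α4β7− CD22− and a CD22+ subset, and 4 libraries of RNA were sequenced for each, 12 altogether. All libraries came from untreated wild-type C57BL/6J mice on standard chow, labelled female, whereas the study's methods mention both sexes and a young adult age range for all experiments. Each library pooled 2 mice, whose proximal SI lamina propria was sorted for live CD45+ CD11b+ SiglecF+ MHCII− Ly6G− cells that were then divided by the integrin α4β7 and the lectin CD22. The study took the 3 subsets as approximately younger, intermediate, and older eosinophils, so the comparisons ask how receptor expression differs with time in the tissue. These are static sorted populations of pooled mice, and no library follows the same cells over time.

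IL-5, IL-3, and GM-CSF each bind a private α chain, encoded by Il5ra, Il3ra, and Csf2ra, which pairs with the common β chain encoded by Csf2rb to activate JAK2 and STAT5. Mice carry a further β chain gene, Csf2rb2, whose product serves the IL-3 receptor. IL-33, an alarmin released by damaged barrier cells, binds ST2, the product of Il1rl1, which recruits the accessory chain encoded by Il1rap and signals through MyD88 and IRAK proteins. IL-4Rα, encoded by Il4ra, forms the type II receptor for IL-4 and IL-13 with the product of Il13ra1, and signals through STAT6. Il10ra encodes the ligand-binding chain of the IL-10 receptor, which signals through STAT3 and restrains inflammatory genes.

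The members lie on 9 chromosomes in GRCm38, the build of the files. Csf2rb (chr15:78325752-78353847, + strand) and Csf2rb2 (chr15:78282507-78305721, − strand) are neighbours. Il5ra lies at chr6:106710357-106749037 (−), Csf2ra at chr19:61223957-61228429 (−), and Il3ra at chr14:14346275-14356011 (+). Il1rl1 lies at chr1:40429570-40465415 (+) within the IL-1 receptor family cluster, and Il1rap at chr16:26581704-26730117 (+). Il4ra lies at chr7:125552120-125579474 (+), Il13ra1 at chrX:36112110-36171259 (+), and Il10ra at chr9:45253837-45269149 (−).

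The β chains are shown first because their reads could be confused. Aligned from end to end, the coding sequences of Csf2rb (2691 bases) and Csf2rb2 (2637 bases) were identical at 95.2% of 2631 ungapped positions, with a longest identical run of 242 bases. Of the 31-base words in the longest coding transcript of Csf2rb, 28.0% also occurred in Csf2rb2 transcripts, and 29.1% of those of Csf2rb2 occurred in Csf2rb. The remaining words can separate the genes, but their counts are less certain than those of the other members. The stretch of 150 coding bases with the most mismatches (25) is printed below 5′ to 3′ from the GENCODE transcripts, with mismatched bases in capitals. It covers coding bases 300 to 449 of Csf2rb and 303 to 452 of Csf2rb2 and crosses an intron in the genome (chr15:78338889-78340492, +, and chr15:78292817-78294442, −).
Csf2rb: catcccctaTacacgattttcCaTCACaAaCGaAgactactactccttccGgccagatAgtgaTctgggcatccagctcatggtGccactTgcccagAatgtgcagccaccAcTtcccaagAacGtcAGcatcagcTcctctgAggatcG
Csf2rb2: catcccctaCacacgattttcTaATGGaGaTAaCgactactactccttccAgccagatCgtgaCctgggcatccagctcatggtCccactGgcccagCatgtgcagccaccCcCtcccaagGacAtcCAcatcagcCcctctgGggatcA
Among the other members, 7.24% of the words of Il1rap occurred in transcripts of other genes, all in Gm20319, against 4.40% for Il5ra, 2.09% for Il1rl1 and at most 1.15% for the other 5.

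The 250 bases before the RefSeq start are shown for 4 of the 6 members that were called different between subsets. Il10ra had no window, and that of Il3ra, which runs past the start of the gene given above, is not printed. RefSeq windows on GRCm38.p6 were given for 8 of the 10 members (not Csf2rb or Il10ra), as 9 windows, since Il1rl1 has 2 starts. Capitals mark GATAA or its reverse complement TTATC, which are core letters of the GATA factor motif, and TTCNNNGAA, the core letters of the STAT5 motif. They also mark TGANTCA, the core letters of the AP-1 motif. TTCNNNNGAA, core letters bound by STAT6, was also searched. TTCNNNGAA, TTCNNNNGAA and TGANTCA have the same core on both strands, and overlapping matches were counted separately. GATAA occurred in 22.6% of all 32851 windows of this length, TTCNNNGAA in 7.02%, TTCNNNNGAA in 5.85% and TGANTCA in 6.75%. The windows shown are those of Il5ra (chr6:106749038-106749287, −) and Csf2rb2 (chr15:78305722-78305971, −), both starts of Il1rl1 (chr1:40429320-40429569 and chr1:40439379-40439628, +), and Il13ra1 (chrX:36111858-36112107, +).
Il5ra: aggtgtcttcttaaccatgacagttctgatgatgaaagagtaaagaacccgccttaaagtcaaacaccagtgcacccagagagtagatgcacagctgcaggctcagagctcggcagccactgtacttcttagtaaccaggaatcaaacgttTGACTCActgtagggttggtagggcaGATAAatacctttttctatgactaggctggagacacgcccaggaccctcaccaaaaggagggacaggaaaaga
Csf2rb2: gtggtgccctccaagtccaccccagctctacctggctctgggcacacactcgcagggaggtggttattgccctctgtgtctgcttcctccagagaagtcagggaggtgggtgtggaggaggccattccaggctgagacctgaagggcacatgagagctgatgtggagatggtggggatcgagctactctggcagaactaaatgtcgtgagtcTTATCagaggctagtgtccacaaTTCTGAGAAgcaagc
Il1rl1, upstream start: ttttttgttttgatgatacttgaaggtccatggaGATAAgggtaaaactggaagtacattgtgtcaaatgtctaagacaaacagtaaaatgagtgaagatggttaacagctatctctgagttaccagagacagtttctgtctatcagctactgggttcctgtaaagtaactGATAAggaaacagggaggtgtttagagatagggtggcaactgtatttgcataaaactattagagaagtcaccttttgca
Il1rl1, downstream start: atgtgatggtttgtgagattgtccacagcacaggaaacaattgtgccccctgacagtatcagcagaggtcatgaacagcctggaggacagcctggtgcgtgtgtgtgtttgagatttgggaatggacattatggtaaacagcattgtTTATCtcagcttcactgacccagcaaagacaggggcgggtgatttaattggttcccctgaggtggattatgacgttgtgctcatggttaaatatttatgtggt
Il13ra1: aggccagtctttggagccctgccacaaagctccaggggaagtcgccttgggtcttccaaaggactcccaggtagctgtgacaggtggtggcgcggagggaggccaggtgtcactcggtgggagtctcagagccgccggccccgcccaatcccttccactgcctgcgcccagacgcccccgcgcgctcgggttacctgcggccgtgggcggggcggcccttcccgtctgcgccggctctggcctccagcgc
GATAA or its complement occurred in 4 of the 9 members' windows: those of Il5ra and Csf2rb2 and both of Il1rl1. TTCNNNGAA occurred in 1, that of Csf2rb2, and TGANTCA in 1, that of Il5ra, while TTCNNNNGAA occurred in 0. The window of Il3ra, which was called lower in both other subsets, held 0 matches to any of the 4. A match describes letters in the window only. The downstream start of Il1rl1 lies inside the annotated gene, and the deposited values are sums per gene, so use of the 2 starts and the membrane and soluble forms of ST2 cannot be told apart here.

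The normalized counts summed to 14286474 to 16915755 per library, with the α4β7+ libraries highest (15783607 to 16915755) and the CD22+ libraries lowest (14286474 to 14758267). Of the eosinophil markers, Siglecf lay between 6884 and 8594 and Adgre1, which encodes F4/80, between 12893 and 18098, whereas the granule protein genes were low: Epx lay between 58.7 and 173, Prg2 between 69.2 and 407, and Prg3 between 12.1 and 45.7. Of the 8 eosinophil markers, 4 were lower in the CD22+ than in the α4β7+ subset by the rule for calls given below. Over all genes tested, 6.39% were called lower. The 4 markers included Ccr3, the eotaxin receptor gene. An unadjusted limma p under 0.05 was found for 6 of the 8, and the median log2 fold change of the 8 was -0.76. Among the markers sorted on, Itgb7, which encodes the β7 integrin chain, lay between 1838 and 3058 in the α4β7+ libraries and between 98.7 and 304 in the others. Cd22 lay between 11553 and 14766 in the CD22+ libraries and between 987 and 5819 elsewhere. Differences below are log2 fold changes from limma on log2(normalized count + 1), with p adjusted by the Benjamini-Hochberg method over all genes tested in a comparison. A gene was called different when its adjusted p did not exceed 0.05 and its fold change reached 1.5. The study describes the libraries of a subset as individual biological replicates, while no source used here says whether different subsets were sorted from the same mice.

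The receptor chains did not all move one way. Against the α4β7+ subset, 2 members were called higher in the α4β7− CD22− subset (Il13ra1 and Il10ra) and 2 lower (Il1rl1 and Il3ra), while 3.7% of all genes tested were called higher and 4.35% lower. In the CD22+ subset 1 was called higher than in α4β7+ cells (Il13ra1) and 4 lower (Il1rl1, Il3ra, Csf2rb2 and Il5ra), against 5.6% and 6.39% of all genes. Between the CD22+ and α4β7− CD22− subsets 0 members were called by limma, against 0.603% of all genes. Regardless of fold, the adjusted p was at most 0.05 for 8, 7 and 1 of the 10 members in the 3 comparisons, against 14.9%, 21.1% and 1.08% of all genes. In that last comparison 3 members, Il5ra, Csf2rb2 and Il3ra, had an unadjusted p under 0.05, all with lower values in the CD22+ subset. The median log2 fold change of the 10 members was 0.13, 0.08 and -0.13 in the 3 comparisons in that order, and 0.0030, 0.014 and -0.0014 over all genes tested. Both comparisons with α4β7+ cells share the same 4 α4β7+ libraries.

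**Figure D1:**
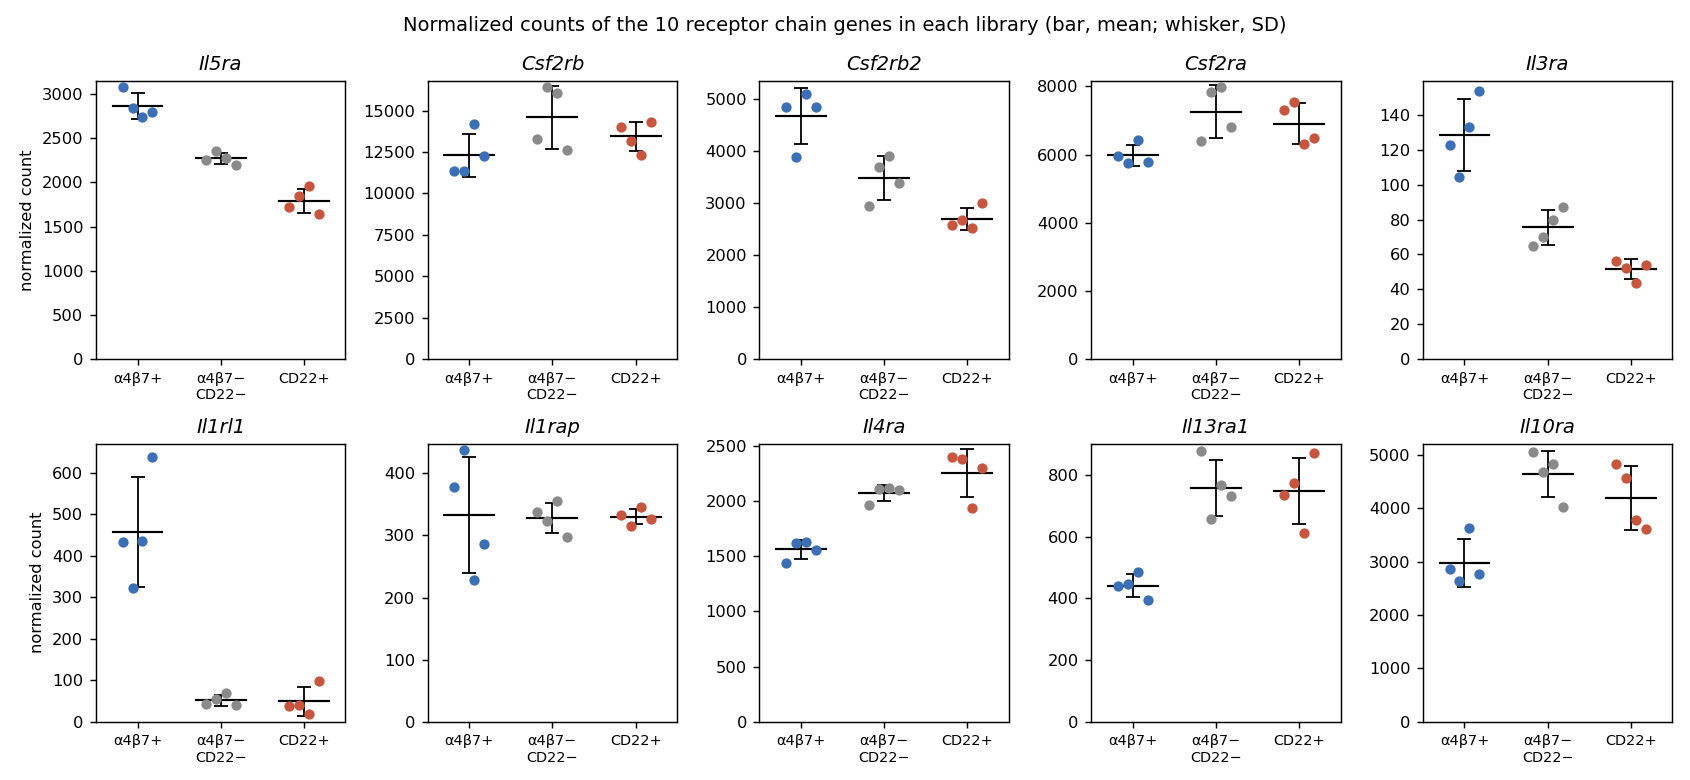
Normalized counts (y axis, from 0) of each receptor chain gene in the 12 libraries, by subset (x axis); points are libraries, bars means and whiskers SD (n = 4). Il5ra, Csf2rb2, Il3ra and Il1rl1 sit highest in the α4β7+ libraries, Il4ra, Il13ra1 and Il10ra lowest, and Il1rap means lie between 328 and 333.

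Il5ra, which gives the receptor its specificity for IL-5, stepped down across the subsets. It measured 3077, 2841, 2745 and 2794 normalized counts in the α4β7+ libraries, 2250.3, 2357, 2281 and 2200.5 in the α4β7− CD22− libraries, and 1722, 1841, 1959 and 1648 in the CD22+ libraries. No library of one subset overlapped another. The CD22+ mean (1793 ± 137, SD, n = 4) lay 1.60-fold below the α4β7+ mean of 2864 ± 147, a log2 fold change of -0.68 ± 0.07 (SE) with a limma adjusted p of 5.95e-06. Both single steps were under 1.5-fold and so were not called: -0.33 from α4β7+ to α4β7− CD22− (adjusted p = 0.00504) and -0.34 from there to CD22+ (adjusted p = 0.0302). The latter p ran from 0.0250 to 0.113 when single libraries were left out, and from 0.0233 to 0.133 under the other settings. Absence of overlap was found for 22.9% of all genes between CD22+ and α4β7+ cells, 18.8% between α4β7− CD22− and α4β7+ cells, and 6.37% between CD22+ and α4β7− CD22− cells. With each library rescaled to the same total, the first difference was -0.52 and fell short of 1.5-fold. In sorted cell RNA, fewer cells of a type and less RNA per cell cannot be told apart.

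Csf2rb, the shared signalling chain, did not follow Il5ra. It measured 11386, 11381, 14176 and 12275 in α4β7+ libraries, 13299, 16418, 16055 and 12622 in α4β7− CD22− libraries, and 14013, 13188, 12313 and 14298 in CD22+ libraries. The 3 ranges overlapped. The difference from α4β7+ cells was 0.24 in α4β7− CD22− cells (95% interval 0.04 to 0.45, limma adjusted p = 0.115) and 0.13 in CD22+ cells (-0.07 to 0.34, adjusted p = 0.388). Within libraries, the ratio of Il5ra to Csf2rb was lower outside the α4β7+ subset. It was 0.27, 0.25, 0.194 and 0.228 in α4β7+ libraries, 0.169, 0.144, 0.142 and 0.174 in α4β7− CD22− libraries, and 0.123, 0.14, 0.159 and 0.115 in CD22+ libraries. These ratios do not depend on how libraries were scaled. The log2 ratio was lower in α4β7− CD22− cells (-0.58) and CD22+ cells (-0.81) than in α4β7+ cells, without overlap (two-sided exact permutation test, p = 0.0286 each, the smallest that 4 against 4 allows; adjusted p = 0.0381 over 12 such tests). Between CD22+ and α4β7− CD22− cells it differed by -0.23 (exact p = 0.114, adjusted p = 0.137). Without any 1 of the α4β7− CD22− libraries, the difference between α4β7− CD22− and α4β7+ cells had an adjusted p of 0.0762 (exact permutation test).

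Csf2rb2, the second β chain gene, moved like Il5ra rather than like its paralog. The α4β7+ libraries held 4844, 3877, 5106 and 4845 normalized counts, the α4β7− CD22− libraries 2940.0, 3684, 3901 and 3395, and the CD22+ libraries 2572, 2671, 2517 and 2993. All CD22+ libraries lay below all α4β7+ libraries, and 1 α4β7− CD22− library reached the lowest α4β7+ library. Between CD22+ and α4β7+ cells the log2 fold change was -0.79 ± 0.10 (SE), a 1.73-fold lower level (limma adjusted p = 4.91e-05). From α4β7+ to α4β7− CD22− it was -0.42 (adjusted p = 0.0115), under 1.5-fold. From α4β7− CD22− to CD22+ it was -0.37 (adjusted p = 0.133).

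The ratio of Csf2rb2 to Csf2rb separated all 3 subsets. It was 0.425, 0.341, 0.36 and 0.395 in α4β7+ libraries, 0.221, 0.224, 0.243 and 0.269 in α4β7− CD22− libraries, and 0.184, 0.203, 0.204 and 0.209 in CD22+ libraries. The mean log2 ratio was -1.40 ± 0.14 (SD, n = 4), -2.07 ± 0.13 and -2.32 ± 0.08 in that order, and each of the 3 differences (-0.67, -0.92 and -0.26) had an exact permutation p of 0.0286 and an adjusted p of 0.0381. Without CD22+ replicate 1 the last difference was -0.22 (exact test of 3 against 4 libraries, adjusted p = 0.0762). Taken as pairs of the same replicate number, the 4 differences gave an adjusted p of 0.167 in an exact sign-flip test, where the smallest raw p that 4 pairs allow is 0.125. How the counting divided reads between these near-identical genes was not tested.

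**Figure D2:**
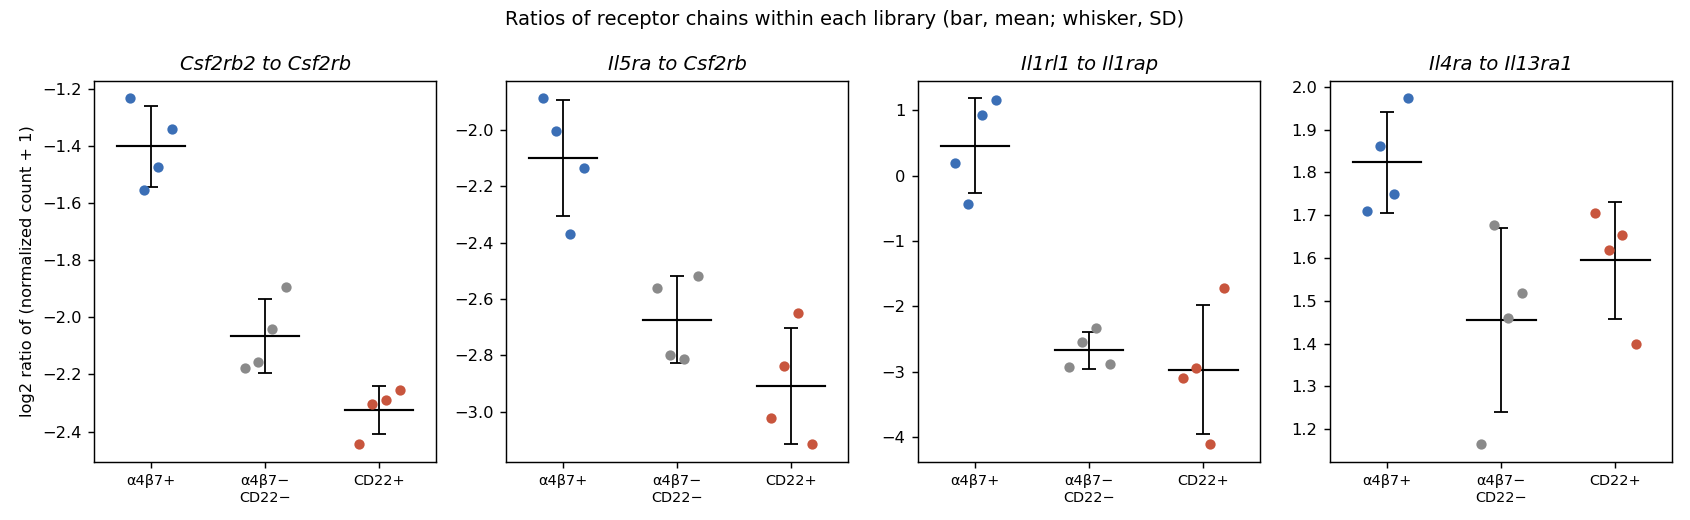
Log2 ratio of 2 receptor chains within each library (y axis) by subset (x axis); points are libraries, bars means and whiskers SD (n = 4). The ratio of Csf2rb2 to Csf2rb separates the 3 subsets, and those of Il5ra to Csf2rb and Il1rl1 to Il1rap separate the α4β7+ libraries from the other 8.

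Csf2ra, the GM-CSF binding chain, was the most abundant member per length and differed least among the α chains. Its libraries ranged from 5756 to 6421 in the α4β7+ subset, from 6390 to 7997 in the α4β7− CD22− subset, and from 6311 to 7545 in the CD22+ subset. The α4β7+ range overlapped the other 2 narrowly. The largest difference was 0.27 (95% interval 0.09 to 0.46) between α4β7− CD22− and α4β7+ cells, with a limma adjusted p of 0.0416 that ran from 0.0197 to 0.123 when single libraries were left out. It was under 1.5-fold and was not called.

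Il3ra, the IL-3 binding chain, was the least abundant of the IL-5 receptor family and showed the steepest relative steps within it. It measured 123, 105, 133 and 154 in α4β7+ libraries, 64.8, 70.2, 79.7 and 87.1 in α4β7− CD22− libraries, and 56.4, 51.9, 43.4 and 54.1 in CD22+ libraries. The 3 subsets did not overlap. The log2 fold change was -1.30 ± 0.19 (SE) in CD22+ against α4β7+ cells, 2.46-fold lower (limma adjusted p = 0.000167), and -0.76 in α4β7− CD22− against α4β7+ cells (adjusted p = 0.0150). The latter was no longer called without α4β7+ replicate 4 (-0.67, adjusted p = 0.0518). Between CD22+ and α4β7− CD22− cells the difference was -0.54 (adjusted p = 0.297).

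Il1rl1, which encodes the IL-33 receptor ST2, showed the largest difference of any member. It measured 434, 323, 435 and 639 normalized counts in α4β7+ libraries, 43.6, 54.3, 69.4 and 39.3 in α4β7− CD22− libraries, and 38.1, 40.0, 19.0 and 98.6 in CD22+ libraries. The lowest α4β7+ library held over 3 times as many as the highest of the other 8. The level was 8.65-fold lower in α4β7− CD22− cells (log2 fold change -3.11 ± 0.38, limma adjusted p = 5.90e-05) and 10.5-fold lower in CD22+ cells (-3.40 ± 0.38, adjusted p = 1.19e-05). Between the latter subsets it differed by -0.28 (95% interval -1.10 to 0.53, adjusted p = 0.896), an interval that still holds a 1.5-fold lower level in CD22+ cells. CD22+ replicate 4, the CD22+ library with the most Il1rl1, also held the most Itgb7 of the 4 (285, against 98.7 to 122 in the others), whereas α4β7− CD22− replicate 4 held the most Itgb7 of its subset (304) and the least Il1rl1 (39.3). Of markers of other cells, CD22+ replicate 4 held the most Rora (147, against 40.0 to 91.3), C1qa (388, against 125 to 237) and Col1a1 (754, against 123 to 285) of its subset. It held the least Thy1 (327, against 364 to 530), and Krt8 was highest in CD22+ replicate 3 (2484).

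Il1rap, whose product ST2 needs to signal, did not move with it. It ranged from 228 to 437 in α4β7+ libraries, from 297 to 355 in α4β7− CD22− libraries, and from 316 to 345 in CD22+ libraries. The α4β7+ libraries spread most and enclosed both other ranges. The differences were 0.02, 0.03 and 0.01, with 95% intervals within -0.35 to 0.39. The ratio of Il1rl1 to Il1rap was 1.15, 0.738, 1.90 and 2.23 in α4β7+ libraries, and at most 0.302 in the other 8. Its mean log2 value was lower in α4β7− CD22− cells (a difference of -3.14) and in CD22+ cells (-3.43) (exact permutation p = 0.0286, adjusted p = 0.0381 each), and the latter subsets differed by -0.29 (exact p = 0.6). Without CD22+ replicate 4 that last difference was -0.71 with an adjusted p of 0.0381, and without CD22+ replicate 3 it was 0.09, so it rests on single libraries.

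Since ILC2s, mast cells and T cells also carry ST2, their markers are given beside it. The 7 ILC2 markers summed to 664 to 833 in α4β7+ libraries, 447 to 499.8 in α4β7− CD22− libraries, and 498 to 652 in CD22+ libraries. Most of the sum was Thy1 (417 to 542, 312 to 370.2 and 327 to 530 in that order), which was not called (-0.51 and -0.27, limma adjusted p = 0.0242 and 0.221). Of the others, Rora and Il17rb were called lower in both other subsets than in α4β7+ cells, Klrg1 was under the filter (12.7 to 24.9, then at most 4.90), and Gata3, a defining factor, lay between 17.9 and 45.6 in α4β7+ libraries and between 14.1 and 64.4 elsewhere. Il13 was at 0 in 9 of the 12 libraries. The 7 mast cell markers summed to 57.6 to 106, 85.0 to 168 and 104 to 182, most of it Kit, while Tpsb2 was at 0 in all libraries and Mcpt1, Mcpt2, Cpa3 and Fcer1a were at 0 in most. Of the 5 T cell markers tested, 2 (Cd3e and Cd8a) were called lower in α4β7− CD22− than in α4β7+ cells, and 0 in CD22+ cells by limma, where 0 had an unadjusted p under 0.05 (the sums were 829 to 1388, 537 to 813 and 818 to 1245). The ILC2 and T cell markers moved with Il1rl1 in part, and their part in the result was not tested. The mast cell sum, most of it Kit, was not lower where Il1rl1 was low, and the part of mast cells was not tested either. Of its rarer genes, Ms4a2, Mcpt1 and Cpa3 peaked in single α4β7+ libraries (at 21.5, 9.27 and 4.28). Mcpt2 and Fcer1a peaked in the other subsets (at 2.93 and 2.06). Markers of macrophages (sums of 3842 to 8804), B or plasma cells (2476 to 7395), epithelial cells (1093 to 7010) and stromal or endothelial cells (10488 to 13789) were also detected. Jchain made up 2305 to 7156 of the B or plasma cell sum. Of the stromal or endothelial sum, Pecam1 made up 9507 to 13060 and Cdh5 17.1 to 109. No gene of these lists was called by limma in the comparisons with α4β7+ cells (at an unadjusted p under 0.05: 1 macrophage gene in each, 1 stromal gene in α4β7− CD22− cells, and 0 of the others). Of 3 neutrophil markers tested 2 were called lower in CD22+ than in α4β7+ cells (sums of 20.1 to 24.6 against 73.0 to 123), and of 6 Paneth cell markers 1 was called higher (236 to 1760 against 190 to 564). Over all genes tested, 4.35% were called lower in α4β7− CD22− than in α4β7+ cells. In CD22+ cells 6.39% of all genes were called lower and 5.6% higher.

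The neighbours of Il1rl1 in its chromosomal cluster did not all change the same way. Il1r2, the IL-1 decoy receptor gene that starts 355 kb upstream, was called higher in both subsets (1.01 and 0.67). Il1rl2, which encodes the IL-36 receptor and starts 105 kb upstream, was not called (-0.13 and -0.47). Il18r1, which encodes the IL-18 binding chain and starts 36.0 kb downstream, was lower in α4β7− CD22− cells (-0.76, limma adjusted p = 0.0293) and not called in CD22+ cells (-0.58, adjusted p = 0.0790). Its partner Il18rap was not called (-0.54 and -0.46). Il1r1, at 4.02 to 68.8 normalized counts in all libraries, was called lower in α4β7− CD22− cells only (-2.09, 95% interval -3.49 to -0.70, which overlaps that of Il1rl1), and the difference between the 2 comparisons, which equals CD22+ against α4β7− CD22−, was 1.21 (adjusted p = 0.613).

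**Figure D3:**
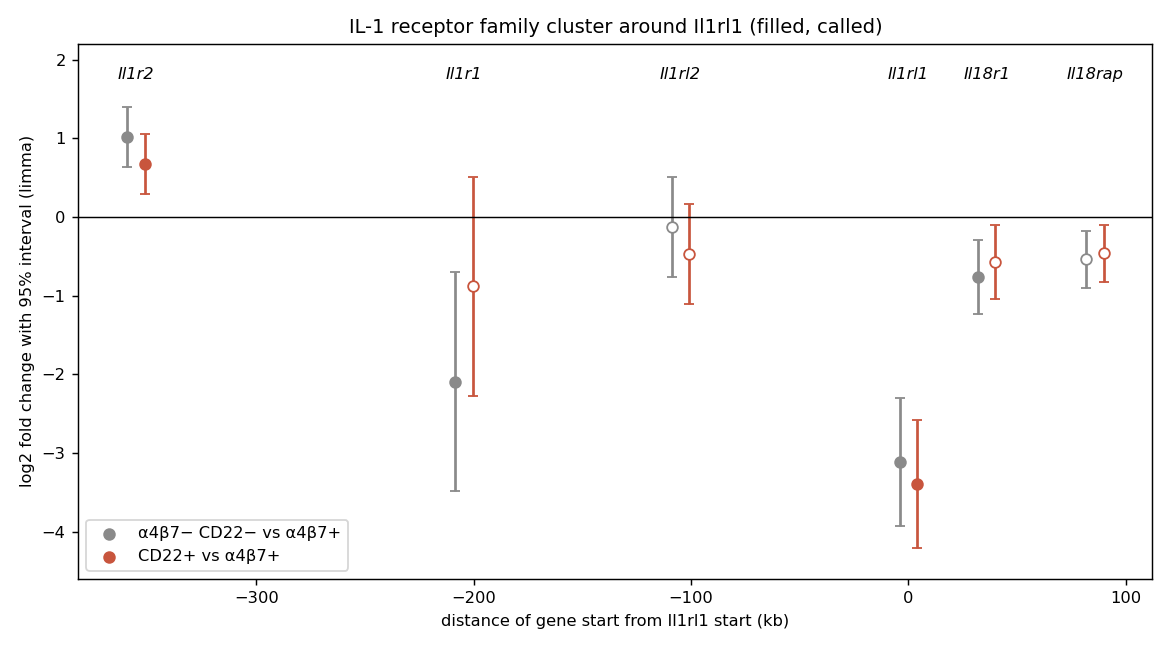
Log2 fold change against the α4β7+ subset with 95% intervals (y axis) of the 6 IL-1 receptor family genes by the distance of their start from that of Il1rl1 in kb (x axis); filled points were called. Il1rl1 lies at -3.11 and -3.40, Il1r2 above 0, and the intervals of Il1rl2, Il18r1 and Il18rap lie above that of Il1rl1.

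Il4ra, the signalling chain for IL-4 and IL-13, lay higher outside the α4β7+ subset by less than 1.5-fold. It measured 1443, 1623, 1632 and 1553 in α4β7+ libraries, 1968, 2109, 2115 and 2102 in α4β7− CD22− libraries, and 2399, 2377, 1934 and 2298 in CD22+ libraries. Every library of the other subsets lay above every α4β7+ library. The differences of 0.41 (95% interval 0.24 to 0.58, limma adjusted p = 0.00277) and 0.52 (0.35 to 0.69, adjusted p = 0.000220) correspond to 1.33-fold and 1.44-fold. The CD22+ difference passed 1.5-fold, and was called, when libraries were rescaled to the same total (0.68) or CD22+ replicate 3 was left out (0.59).

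Il13ra1, the partner of IL-4Rα in the type II receptor, was higher in both other subsets. It measured 440.2, 446, 485 and 395 in α4β7+ libraries, 878, 659, 768 and 733 in α4β7− CD22− libraries, and 735, 774, 614 and 871 in CD22+ libraries. There was no overlap with the α4β7+ libraries. The log2 fold change was 0.78 ± 0.12 in α4β7− CD22− cells, 1.71-fold (limma adjusted p = 0.000450), and 0.75 ± 0.12 in CD22+ cells, 1.68-fold (adjusted p = 0.000334). The latter subsets differed by -0.02 (95% interval -0.28 to 0.23). Because Il13ra1 differed more than Il4ra, the ratio of Il4ra to Il13ra1 was lower outside the α4β7+ subset: 3.28 to 3.93 there, 2.24 to 3.20 in α4β7− CD22− cells, and 2.64 to 3.27 in CD22+ cells. The log2 differences of -0.37 and -0.23 each had an exact permutation p of 0.0286 (adjusted p = 0.0381), the smallest possible, and the groups were nearly touching. With single libraries left out the differences ran from -0.44 to -0.27 and from -0.27 to -0.16. In the exact permutation test of 3 against 4 libraries, the adjusted p of the former then rose to 0.0762 without any 1 of the α4β7+ libraries. That of the latter rose to 0.0686 to 0.103 without α4β7+ or CD22+ replicate 2, 3 or 4. Il13ra2, which encodes the decoy receptor for IL-13, was under the filter at 0 to 6.94 in all libraries, and Il2rg, which encodes the partner of IL-4Rα in the type I receptor, was not called (-0.14 and -0.17).

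Il10ra was also higher outside the α4β7+ subset. It measured 2868, 2632, 3629 and 2774 in α4β7+ libraries, 5043, 4672, 4826 and 4029.5 in α4β7− CD22− libraries, and 4824, 4558, 3769.8 and 3603 in CD22+ libraries. The α4β7− CD22− libraries lay above all α4β7+ libraries, and the CD22+ range overlapped that of α4β7+ by a single library pair. The log2 fold change was 0.65 ± 0.12 in α4β7− CD22− cells, 1.57-fold (limma adjusted p = 0.00143). In CD22+ cells it was 0.49 ± 0.12, 1.41-fold and so not called (adjusted p = 0.00659). It was called when libraries were rescaled to the same total (0.65) or α4β7+ replicate 3 was left out (0.59). Il10rb, which encodes the other chain of the IL-10 receptor, was not called (0.15 and 0.04).

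**Figure D4:**
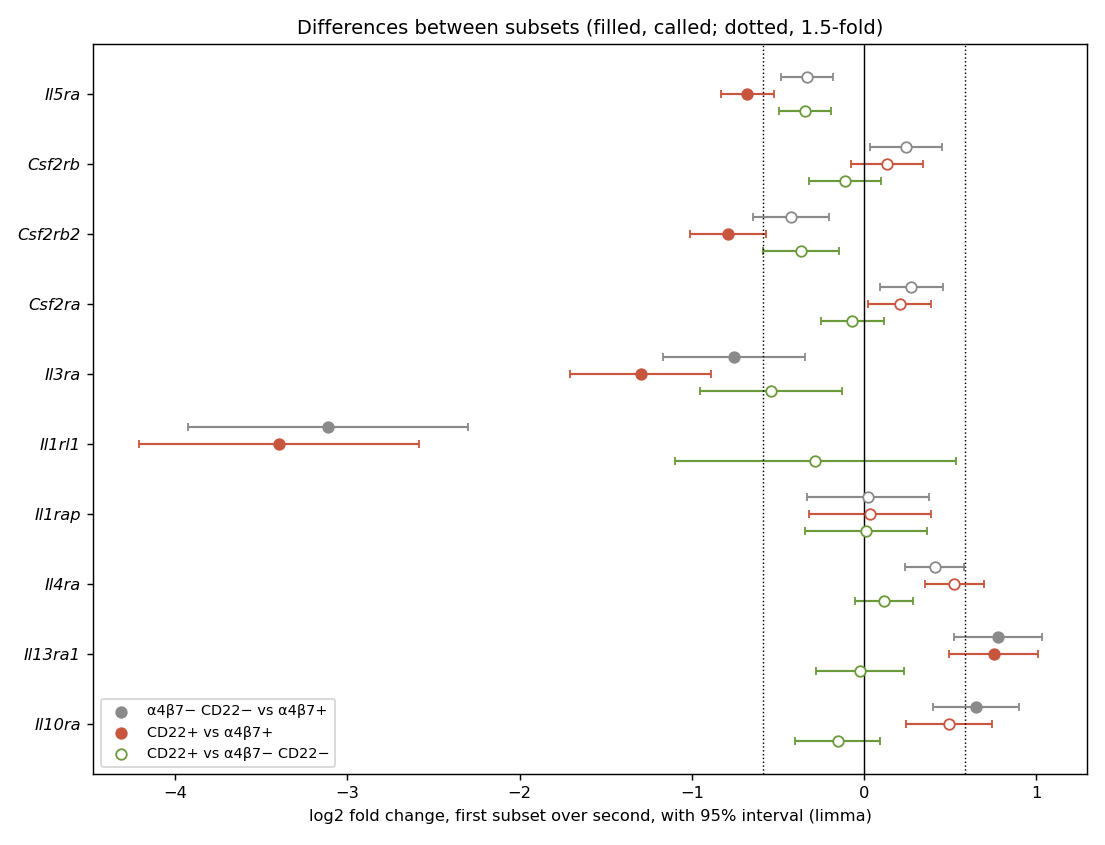
Log2 fold change with 95% interval from limma (x axis) for each receptor chain gene (y axis) in the 3 comparisons; filled points were called and dotted lines mark 1.5-fold. Il1rl1 lies below -3 against α4β7+ cells, and the 10 open points of CD22+ against α4β7− CD22− lie between -0.54 and 0.11.

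Levels were compared between genes as normalized counts per kb of the longest coding transcript, since longer transcripts collect more reads. In α4β7+ cells Csf2ra (3234 per kb) and Csf2rb (2511) led, followed by Csf2rb2 (985), Il10ra (851) and Il5ra (801), whose ranges over libraries overlapped. Il4ra followed at 297, and then Il13ra1 (119), Il1rl1 (86.3), Il1rap (73.6) and Il3ra (55.5), each of which overlapped the next. In CD22+ cells the order of levels per kb differed. Il10ra (1198) ranked next after Csf2ra (3738) and Csf2rb (2746), above Csf2rb2 (567) and Il5ra (501), which still overlapped, and Il4ra (428) came close behind without overlap. Il1rl1 (9.22 per kb) fell to last place, below Il3ra (22.2), with library ranges that nearly met (3.58 to 18.6 and 18.8 to 24.4). Among tested protein-coding genes, Il1rl1 stood at percentile 51.1 per kb in α4β7+ cells and 14.7 in CD22+ cells, while Csf2rb and Csf2ra stayed above percentile 97.

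**Figure D5:**
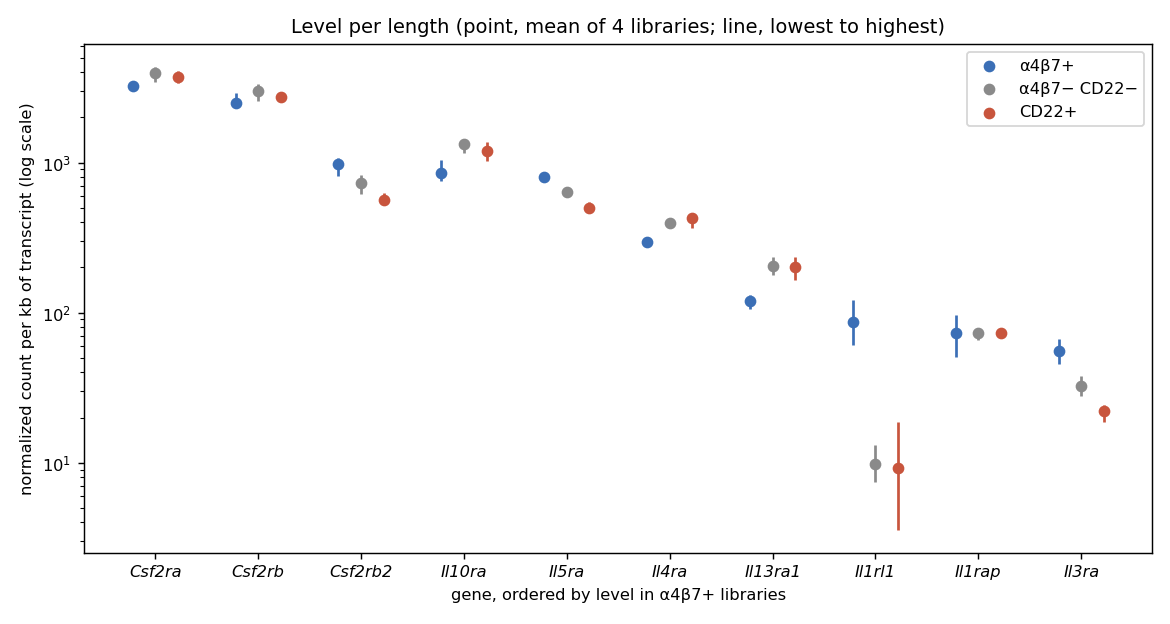
Normalized counts per kb of transcript (y axis, log scale) of the receptor chain genes, ordered by level in α4β7+ cells (x axis); points are means of 4 libraries and lines run from the lowest to the highest library. Csf2ra and Csf2rb are the 2 highest in all subsets, and Il1rl1 spans from 86.3 in α4β7+ cells to 9.22 in CD22+ cells.

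The ligands of these receptors were mostly near the limit of detection in the eosinophils themselves. Il3 was at 0 in all 12 libraries, and Il5 was at 0 in the α4β7− CD22− and CD22+ libraries and at 0.930 to 2.33 in the α4β7+ libraries. A floor of 3 reads corresponded to 2.55 to 3.48 normalized counts, so Il5 lay at or under it throughout. Csf2, Il33, Il13, Tslp and Il25 were under the filter. Tslp and Il25 were on this list although their receptors are not among the 10 members. Of its 9 genes, 2 could be tested. Il4 was lower in each step: 375, 312, 453 and 332 in α4β7+ libraries, 136, 189, 144 and 199 in α4β7− CD22− libraries, and 91.5, 102, 98.0 and 105 in CD22+ libraries (-1.14 and -1.87 against α4β7+ cells, limma adjusted p = 0.000245 and 1.01e-06; -0.73 between the others, adjusted p = 0.0496). Il10 was lower in α4β7− CD22− than in α4β7+ cells (-1.37, adjusted p = 0.0415) and lay at -1.02 in CD22+ cells (adjusted p = 0.108).

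Downstream of the receptors, of 17 JAK, STAT and inhibitor genes 1 was called lower in each comparison with α4β7+ cells, beside 4.35% and 6.39% of all genes, and 7 and 9 had an unadjusted p under 0.05. The gene called was Cish in both, a feedback inhibitor induced by STAT5 (-0.98 and -0.95; 1255 to 1650 in α4β7+ libraries and 473 to 1001 in the other 8). The median of the 17 was 0.02 and -0.05. Jak2, the kinase bound by the β chain, was higher by less than 1.5-fold (0.34 and 0.47, limma adjusted p = 0.00203 and 6.94e-05).

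The 7 STAT5 target genes did not all move one way. Against α4β7+ cells, 2 were called lower and 1 higher in α4β7− CD22− cells, beside 4.35% and 3.7% of all genes. In CD22+ cells 4 were called lower and 1 higher, beside 6.39% and 5.6%. The medians were -0.23 and -0.71, and 5 of the 7 had an unadjusted limma p under 0.05 in both. Cish, described above, is among those called lower. Osm, which encodes oncostatin M, fell most: it measured 458 to 628 in α4β7+ libraries, 70.6 to 104 in α4β7− CD22− libraries, and 45.2 to 52.8 in CD22+ libraries (-2.48 and -3.32, and -0.84 between the latter, limma adjusted p = 0.0285). The survival kinase genes Pim1 (-0.71) and Pim2 (-0.85) were lower in CD22+ cells, with Pim1 at 26465 normalized counts or more in every library. Ccnd2, a cyclin gene, was the one that was higher (0.90 and 0.93; 1611 to 2046 in α4β7+ libraries and 2545 to 4545 in the other 8). Socs2 and Bcl2l1 were not called.

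For IL-33 signalling, 1 of 11 genes was called lower in each comparison with α4β7+ cells, beside 4.35% and 6.39% of all genes. An unadjusted limma p under 0.05 was found for 2 and 3 of the 11. The gene called was Irak3, an inhibitor of IRAK signalling: 525 to 666 in α4β7+ libraries, 229 to 325 in α4β7− CD22− libraries, and 116 to 211 in CD22+ libraries (-1.27 and -1.93, limma adjusted p = 0.000171 and 1.40e-06). The median of the 11 was 0.00 and -0.04. Of 7 STAT6 target genes, 3 could be tested and 0 were called by limma (0 at an unadjusted p under 0.05), the counts of Ccl24, an eotaxin gene, lying between 0.822 and 53.4. Of 6 IL-10 and STAT3 target genes, 1 was called lower in each comparison, beside 4.35% and 6.39% of all genes. It was Bcl3, which encodes a nuclear regulator of NF-κB (-0.83 and -1.07). An unadjusted limma p under 0.05 was found for 2 and 5 of the 6, and the medians of the list were -0.13 and -0.32. Il4ra, itself a member, belongs to that list too. Of 15 genes of the dissociation response, 6 were called lower in α4β7− CD22− cells and 8 in CD22+ cells, beside 4.35% and 6.39% of all genes. The medians were -0.44 and -0.69, and 11 and 9 of the 15 had an unadjusted limma p under 0.05. Jun, an AP-1 subunit, was among those called (-0.95 and -1.56). The list did not move one way: Fos (0.32 and -0.09, limma adjusted p = 0.0323 and 0.570) and Atf3 (0.32 and 0.41, adjusted p = 0.123 and 0.0332), named after their values were seen, were not called. These called genes were thus higher in α4β7+ cells, as were Il1rl1, Il3ra and Osm and, against CD22+ cells, Il5ra and Csf2rb2, and their part in those results was not tested.

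Of 30 other cytokine receptor chains, 28 were tested. Against α4β7+ cells, 2 were called higher in each other subset (beside 3.7% and 5.6% of all genes), and they were Il1r2 and Csf3r, the G-CSF receptor gene, in both (Csf3r 1.03 and 1.39). In α4β7− CD22− cells 6 were called lower (beside 4.35% of all genes): Il17ra, Il17rb, Il18r1, Il1r1, Il7r and Lifr. In CD22+ cells 4 were called lower (beside 6.39%): Il17ra, Il17rb, Ifnar2 and Il21r. Il17ra, the chain shared by IL-17 and IL-25 receptors, measured 830 to 1078 in α4β7+ libraries, 203 to 373 in α4β7− CD22− libraries, and 155 to 313 in CD22+ libraries (-1.87 and -2.20). Il17rb, its partner for IL-25, measured 39.7 to 83.6, 7.65 to 39.9 and 8.72 to 18.9 (-1.68 and -2.11). Crlf2, the TSLP receptor gene, lay between 867 and 1159 in all libraries and was not called (0.13 and -0.02). Between CD22+ and α4β7− CD22− cells 0 of the 28 were called by limma, and 5 had an unadjusted p under 0.05. The median of the 28 was -0.29 and -0.32 against α4β7+ cells.

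The genes whose levels ran most like each called member were found by Pearson correlation of log2 values over the 12 libraries among 9465 genes with a mean of at least 100. Libraries of a subset share that subset, so these values describe a common subset pattern. Il5ra ran closest to Pira2 (r = 0.98), Ccr3 (0.977) and Iqgap2 (0.977), and Ccr3 means were 25121, 15187 and 10773 from α4β7+ to CD22+ cells. Csf2rb2 ran closest to Fer, Stk40 and Emilin2 (0.966 to 0.96). Il3ra ran closest to Nfkb2 (0.982), Fermt3 and Ston2. Il1rl1 ran closest to Hpn (0.977), with means of 204, 55.4 and 55.1, and to Irf2bp2 and Spn. Il13ra1 ran closest to Dus2, Fgd2 and Nlrx1 (0.963 to 0.952), and Il10ra to Cyth4, Runx1 and Map3k14 (0.973 to 0.955). Among the members, Il3ra and Csf2rb2 correlated at r = 0.948 and Il5ra with Il4ra at -0.916.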

How the data were processed

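RNA from 12 libraries of sorted SI eosinophils was analyzed. Per the labels and the study's methods, the authors made stranded libraries of total RNA (3 ng), trimmed paired-end reads with Trimmomatic 0.39, pseudoaligned them to mm10 (GRCm38) with kallisto 0.46.1, and normalized counts with DESeq2 1.38.2. The deposited values, a normalized signal per gene, are the counts so obtained. Between 25.6% and 59.1% of a library's low values lay within 5% of a multiple of its estimated value per read, so whole reads were not recovered and no count test was run. The value of 1 read, 0.852 to 1.16 normalized counts, is thus approximate, and floors cover counting error only.

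Genes with a mean above 10 were tested with limma 3.58.1 (R 4.3.3) on log2(normalized count + 1), in a single model of the 3 subsets with a variance trend and Benjamini-Hochberg adjustment per comparison. Thresholds were 0.05 for the adjusted p and 1.5 for the fold change. The pseudocount understates changes of low genes. The scripts were tested on simulated data. Ratios of 2 chains were compared by exact permutation over 70 splits, adjusted over 12 tests. Named genes were the 10 members, genes of fixed pathway and marker lists that were called or needed to show levels, and the 3 genes best correlated with each called member. The members and lists were chosen with earlier results of these data known. Of the 36047 identifiers, 35968 matched the GENCODE annotation of GRCm38. Transcripts were aligned with Biopython 1.88. Promoter sequences are from RefSeq (GRCm38.p6).

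Replicate numbers come from the sample titles, and no source says that they mark shared mice. Residuals from subset means correlated within a number at 0.135 to 0.203 between CD22+ and α4β7− CD22− libraries, but at -0.0586 to 0.182 between CD22+ and α4β7+ libraries and 0.0430 to 0.137 between the others. In that order the means were 0.169, 0.0330 and 0.0870, against -0.0563, -0.0112 and -0.0291 for libraries of different numbers. Only between CD22+ and α4β7− CD22− libraries did every library correlate most with that of its own number. No reported test used the numbers as a block unless it says so. Alternatives were pseudocounts of 0.1 and 10, no filter or a filter at 50, 75th percentile, quantile or total scaling, no trend, adjusted p alone, 2 subsets per model, the replicate block, and each library left out. Raw reads were not used here.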

Additional observations from a re-analysis of the deposited data

Results flagged for a closer look

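Of the 42 groups of 4 libraries examined for a library far from the others (the 10 members and 4 ratios in 3 subsets), 1 stood out, and chance alone would mark about 1 in 20. Il4ra measured 1968 normalized counts in α4β7− CD22− replicate 1, against 2102 to 2115 in the other 3 libraries of that subset. It still lay above every α4β7+ library.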

How the results depend on the processing

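Of the calls, that of Il5ra in CD22+ against α4β7+ cells was lost with libraries rescaled to the same total (-0.52), and that of Il3ra in α4β7− CD22− against α4β7+ cells without α4β7+ replicate 4. Under total scaling the median of all genes was 0.10, 0.17 and 0.06 in the 3 comparisons, against 0.0030, 0.014 and -0.0014 as reported, and it called 820 higher and 504 lower, 1513 and 690, and 40 and 44, against 564 and 664, 854 and 975, and 32 and 60. It called 3 members higher in CD22+ than in α4β7+ cells. With the adjusted p alone, 4 members were higher and 4 lower in α4β7− CD22− against α4β7+ cells, 3 higher in CD22+ against α4β7+ cells, and 1 lower in CD22+ against α4β7− CD22− cells (14.9%, 21.1% and 1.08% of all genes in either direction). Without single libraries, 1 to 2 members were lower in α4β7− CD22− and 1 to 2 higher in CD22+ against α4β7+ cells. In the same order of comparisons, log2 ratios then ran from -0.72 to -0.61, -0.97 to -0.87 and -0.29 to -0.20 for Csf2rb2 to Csf2rb, and -0.67 to -0.51, -0.90 to -0.74 and -0.32 to -0.16 for Il5ra to Csf2rb. They ran from -3.44 to -2.90, -3.85 to -3.05 and -0.71 to 0.088 for Il1rl1 to Il1rap, and -0.44 to -0.27, -0.27 to -0.16 and 0.04 to 0.21 for Il4ra to Il13ra1. With a pseudocount of 10, the ratio of Il4ra to Il13ra1 in CD22+ against α4β7+ cells was -0.22 (exact test, adjusted p = 0.0762).

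As a replicate block, the number changed no member's call. The ratios keep their values in pairs (-0.67, -0.92 and -0.26 for Csf2rb2 to Csf2rb; -0.58 and -0.81 for Il5ra to Csf2rb; -3.14 and -3.43 for Il1rl1 to Il1rap; -0.37 and -0.23 for Il4ra to Il13ra1), but 4 pairs cannot reach the threshold (adjusted p = 0.167). Signs turned only where the reported difference was not called. Between CD22+ and α4β7− CD22− cells, quantile normalization gave 0.049 for Csf2rb, 0.0072 for Csf2ra and -0.011 for Il1rap, and total scaling gave 0.039 for Il13ra1. With single libraries left out, that difference ran from -0.70 to 0.076 for Il1rl1, -0.10 to 0.067 for Il13ra1, and -0.037 to 0.048 for Il1rap. Against α4β7+ cells, Il1rap then ran from -0.14 to 0.17 in α4β7− CD22− cells and -0.13 to 0.18 in CD22+ cells. The cause was not tested. Il5 lay at or under the floor of 3 reads throughout, and Klrg1 near it outside the α4β7+ subset, so no fold is given for either.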
